A study of Mus musculus with 8 samples.

Results

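The immunoglobulin variable (V) genes were examined in RNA-seq counts of total bone marrow (BM) from 8 mice. Genes with the GENCODE mouse biotype IG_V_gene were included when their raw counts, summed over the 8 libraries, reached at least 50. This minimum was met by 164 of the 204 V genes in the count files, of which 82 of 104 belong to the heavy chain, 79 of 97 to the kappa light chain and 3 of 3 to the lambda light chain. The members were selected on their summed raw counts, so that their abundance is a description and not a finding. Igkv4-79 with 53 counts and Igkv9-129 and Igkv4-69 with 61 counts each lay just inside the minimum, and Ighv1-37 with 43 counts and Igkv8-18 with 42 counts lay just outside it. Of the 40 V genes under the minimum, 33 had 1 to 49 summed counts and 7 had no count in any library, and together they held between 41 and 116 counts per library. Without the mice of a single group, 12 of the 164 members would fall below the minimum, among them Ighv5-2, Ighv7-4 and Ighv8-6, and a difference of such a gene from the group in which it is high follows in part from the selection.

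All mice were C57Bl6. Ages were 39 and 42 days for young Gfi1 KD, 48 and 44 days for young Gfi1 KO, 187 and 78 days for sick Gfi1 KD and 158 and 101 days for old Gfi1 KO mice, with AML recorded by the labels in the sick KD mice and in no other group. KD mice carry a human GFI1 cDNA in place of the mouse gene with a floxed neo cassette in antisense orientation, which lowers its expression, and KO mice lack functional Gfi1. The study's text describes the disease of KD mice as a myeloproliferative neoplasm that can progress to leukemia. No wild type library was analysed here, so that a Gfi1 alteration is common to every group, and disease and age cannot be told apart between young and sick KD mice.

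In the text, mouse 1 and mouse 2 of a group are given in the order of these ages. Levels are given as CPM, counts scaled to library size by TMM. For mouse Gfi1 they were 6.17 and 7.03 CPM under the young KD label, 14.0 and 14.4 CPM in young KO, 5.49 and 7.15 CPM in sick KD and 13.3 and 29.7 CPM in old KO. Counts on the human cDNA have no row of their own, and the mouse counts, which were higher under the KO label, do not check the genotype. The libraries held 26642067 to 42679114 counts on genes. Alignment records that were not unique stood apart in the sick KD libraries, with 1.69 and 1.87 per count on genes against 1.06 to 1.14 in the other 6, and their part in the V counts was not tested. Summed over 12 B lineage markers such as Cd79a, Cd22 and Pax5, the level was 575 to 776 CPM in the 4 young libraries and 51.7 to 218 CPM in the 4 old or sick libraries. The 12 plasma cell markers summed to 967 to 1074 CPM in young mice, 921 and 953 CPM in sick KD mice and 1418 and 1158 CPM in old KO mice. Much of this sum came from Txndc5 (318 to 410 CPM) and Xbp1 (263 to 409 CPM), and single genes of the list went different ways. The 6 granulocyte and monocyte markers summed to 4741 to 9100.3 CPM, the 4 erythroid markers to 480 to 3323 CPM, and the 2 megakaryocyte markers to 35.7 to 124 CPM. T cell markers, 4 genes, were low in all libraries at 4.90 to 17.4 CPM. In such bulk samples fewer cells of a type and less RNA per cell cannot be told apart.

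An antibody chain is encoded only after V(D)J recombination, in which the RAG1 and RAG2 proteins cut at recombination signals and join a V gene to a D and a J segment in the heavy chain, or directly to a J segment in the light chains. The heavy chain is rearranged in pro-B cells, and a light chain, first kappa and then lambda, in pre-B cells, so that each B cell usually expresses a single V gene per chain. The share of a V gene in RNA therefore reflects how many cells carry it and how much RNA each of them makes, and plasma cells, which secrete antibody, hold far more immunoglobulin RNA per cell than resting B cells. Heavy chain V genes lie on chromosome 12, kappa V genes on chromosome 6 and lambda V genes on chromosome 16 of GRCm38, the build of mm10.

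The 3′ end of a V gene is where the joint is made, and it opens the third complementarity determining region (CDR3), the most variable part of the antigen binding site. The germline ends of the 5 heavy and 5 kappa V genes with the highest mean share of their chain, of the lambda genes Iglv1 and Iglv2, and of Ighv5-2, the heavy member nearest to the J segments, which was low in old and sick mice, are shown to let the leading genes be compared at the joint. Each line gives the last 48 coding bases, 5′ to 3′, read from GENCODE M21 transcripts, and the capitals mark the codon of the last in-frame cysteine, after which CDR3 starts.
Ighv1-26: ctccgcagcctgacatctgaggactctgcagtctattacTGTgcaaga
Ighv3-6: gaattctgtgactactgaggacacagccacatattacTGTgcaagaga
Ighv8-12: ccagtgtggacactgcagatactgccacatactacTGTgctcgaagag
Ighv1-9: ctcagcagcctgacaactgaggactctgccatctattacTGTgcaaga
Ighv1-53: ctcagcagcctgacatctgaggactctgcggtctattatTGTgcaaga
Ighv5-2: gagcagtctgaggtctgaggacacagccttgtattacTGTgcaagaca
Igkv10-96: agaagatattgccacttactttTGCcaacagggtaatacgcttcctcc
Igkv1-110: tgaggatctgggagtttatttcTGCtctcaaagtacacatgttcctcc
Igkv5-39: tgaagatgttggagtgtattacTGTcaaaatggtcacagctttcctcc
Igkv12-46: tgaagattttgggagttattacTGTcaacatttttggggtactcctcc
Igkv14-111: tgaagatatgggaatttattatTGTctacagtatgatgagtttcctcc
Iglv1: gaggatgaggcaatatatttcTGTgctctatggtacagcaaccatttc
Iglv2: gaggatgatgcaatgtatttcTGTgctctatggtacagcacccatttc

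The heavy genes printed end 6 to 10 bases after the cysteine codon, and the 5 kappa genes end 23 bases after it, so that a kappa V gene carries a much longer germline part of CDR3. The bases GCAAGA, which encode alanine and arginine, follow the cysteine codon directly in 51 of the 82 heavy members (62.2%) and in 10 of the 21 heavy V genes under the minimum with such a codon (47.6%). The last bases are CCTCC in 37 of the 79 kappa members (46.8%) and in 4 of the 18 kappa V genes under the minimum (22.2%). All 5 leading kappa genes share this end and 4 of the 5 leading heavy genes share GCAAGA. These matches were counted on the coding strand only and say nothing of how a gene is used.

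V genes resemble each other closely, which bears on every count given here. The coding sequence of Ighv1-26 is 96.9% identical to that of Ighv1-18, and only 51.0% of the 50-base windows of its transcript occur in no other V transcript. Igkv1-110 is 97.2% identical to Igkv1-117, with 49.1% of its windows unique, whereas Igkv5-39 and Igkv14-111 have 100% and Ighv1-9 99.3% unique windows. Over all heavy members the median share of unique windows was 78.3%, against 73.5% for the heavy V genes under the minimum, and the corresponding kappa medians were 74.1% and 76.7%. Reads that fit several genes equally are not assigned by the usual HTSeq settings, which are not given in the sources used here, so the share of a V gene with a close relative is uncertain. Junction bases and somatic mutations can also keep reads from aligning, and their part in the counts was not tested.

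V genes held 13404 and 12744 counts in young KD mice, 18104 and 14249 in young KO mice, 17362 and 11517 in sick KD mice and 61434 and 45322 in old KO mice. The old KO libraries thus held the most V counts, 0.223% and 0.115% of all counts on genes, while the other 6 libraries held between 0.0342% and 0.0652%. The heavy chain made up 42.8% to 49.05% of V counts in every library, and the ratio of heavy to light V counts ranged only from 0.747 to 0.963.

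Usage was described as the share of each V gene in the V counts of its chain. Ighv1-26 (chr12:114788372-114788805, minus strand) was the most used heavy V gene, with a mean share of 6.86% ± 3.13 (SD, n = 8), where an equal share of 82 genes would be 1.22%. Its share was 7.31% and 8.84% in young KD, 4.06% and 5.29% in young KO, 3.23% and 9.83% in sick KD and 4.37% and 11.9% in old KO mice. It was thus among the 2 most used heavy genes in 4 of the 8 libraries. Its shares in young KO mice were below those in young KD mice, while the sick KD mice lay below and above all young mice, and the old KO mice lay within and above the range of the young. Ighv3-6 (chr12:114288152-114288582, minus strand) followed with 5.30% ± 3.47, from 1.08% in a young KO mouse to 11.6% and 8.65% in the sick KD mice.

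Ighv8-12 (chr12:115647945-115648387, minus strand) owed its mean of 4.95% ± 6.81 to a single library. It made up 21.3% of heavy V counts in young KO mouse 2 (95% Wilson interval 20.3% to 22.2%) and 0.784% to 6.20% in the other 7. Ighv1-9 (chr12:114583569-114584002, minus strand) had 3.504% ± 2.14 and was highest in old KO mouse 1 with 7.58%. Ighv1-53 (chr12:115158403-115158835, minus strand) had 3.15% ± 2.38 and was highest in young KO mouse 1 with 8.71%, while its group mate had 1.37%.

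Among kappa V genes, Igkv10-96 (chr6:68631963-68632442, minus strand) led with a mean of 8.42% ± 6.75 (SD, n = 8). Its share was 5.35% and 4.22% in young KD, 21.7% and 8.70% in young KO, 15.7% and 3.08% in sick KD and 3.67% and 4.97% in old KO mice, so that its 2 highest values came from mice of different genotype and age. Igkv1-110 (chr6:68270485-68271267, plus strand) had 4.80% ± 4.05, with 7.93% and 12.4% in young KO mice, 7.50% in sick KD mouse 1 and 0.990% to 3.97% elsewhere. Igkv5-39 (chr6:69900424-69900977, minus strand) was evenly used in most mice. It had 4.66% and 4.63% in young KD, 3.21% and 3.31% in young KO and 5.34% and 5.75% in old KO mice, but 1.09% and 7.22% in the sick KD pair. Igkv12-46 (chr6:69764523-69765022, minus strand) averaged 3.92% ± 2.37 and Igkv14-111 (chr6:68256389-68256869, plus strand) 3.83% ± 1.45, the latter with the narrowest spread of the 5, 1.83% to 6.14%.

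**Figure D1:**
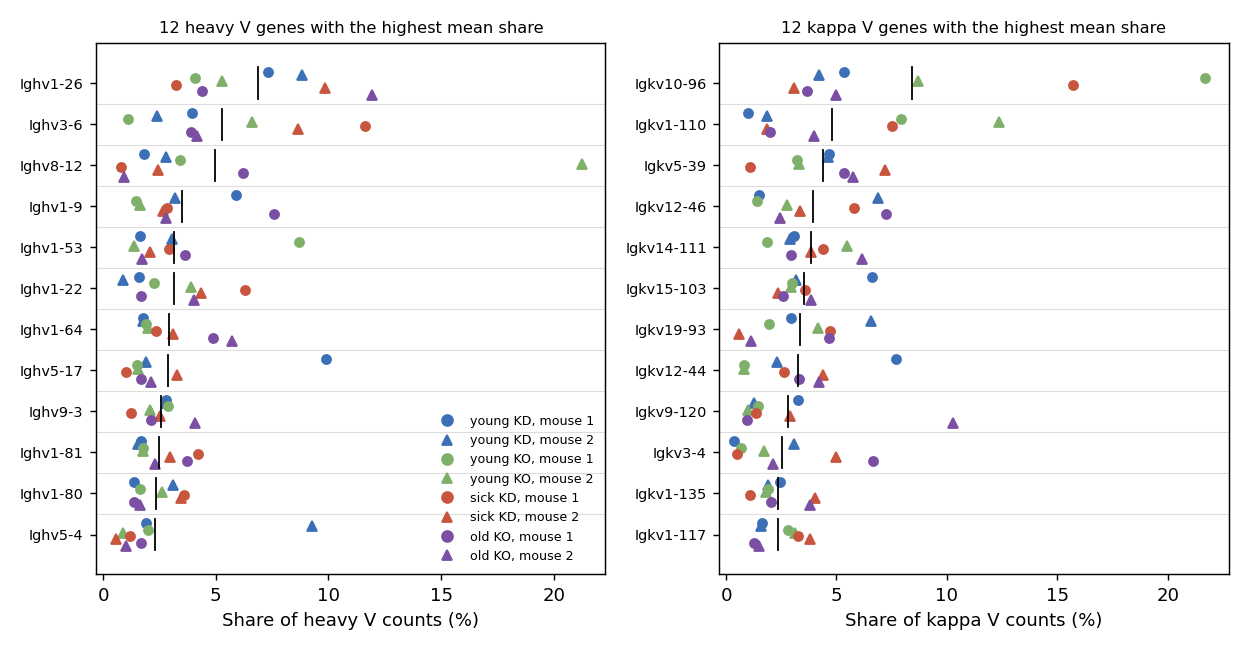
Share of each of the 12 heavy (left) and 12 kappa (right) V genes with the highest mean share, in percent of the V counts of the chain, with 1 point per mouse (mouse 1 as circles, mouse 2 as triangles, colored by group) and a black line at the mean of the 8 mice. Single libraries lie far from the rest, such as young KO mouse 2 for Ighv8-12 at 21.3% and young KO mouse 1 for Igkv10-96 at 21.7%.

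The most used gene differed from mouse to mouse. Ighv5-17 led the heavy chain in young KD mouse 1 with 9.90% and Ighv5-4 in mouse 2 with 9.29%, Ighv1-53 with 8.71% and Ighv8-12 with 21.3% in the young KO mice, Ighv3-6 with 11.6% and Ighv1-26 with 9.83% in the sick KD mice, and Ighv1-9 with 7.58% and Ighv1-26 with 11.9% in the old KO mice. In the kappa chain the leading genes were Igkv12-44 (7.69%) and Igkv1-88 (6.99%) in young KD, Igkv10-96 (21.7%) and Igkv1-110 (12.4%) in young KO, Igkv10-96 (15.7%) and Igkv5-39 (7.22%) in sick KD and Igkv12-46 (7.25%) and Igkv9-120 (10.3%) in old KO mice. No pair of mice of a group had the same leading gene in either chain.

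Several V genes were prominent in 1 mouse alone. In 6 heavy and 11 kappa members the highest share was at least 4-fold above the next library. Ighv1-20 reached 7.59% of heavy V counts in young KO mouse 1 and stayed at or under 0.550% in all other libraries, with no count in sick KD mouse 1, which allows a share of up to 0.0362%. Igkv4-70 reached 4.997% in sick KD mouse 2 against 0.569% or less elsewhere, and Igkv4-91 5.73% in young KD mouse 1 against 0.960% or less. Igkv8-21 made up 11.1% in young KO mouse 1 and 0.185% to 2.19% in the others. Such genes were found in all groups, and these 4 were chosen after their values were seen.

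**Figure D2:**
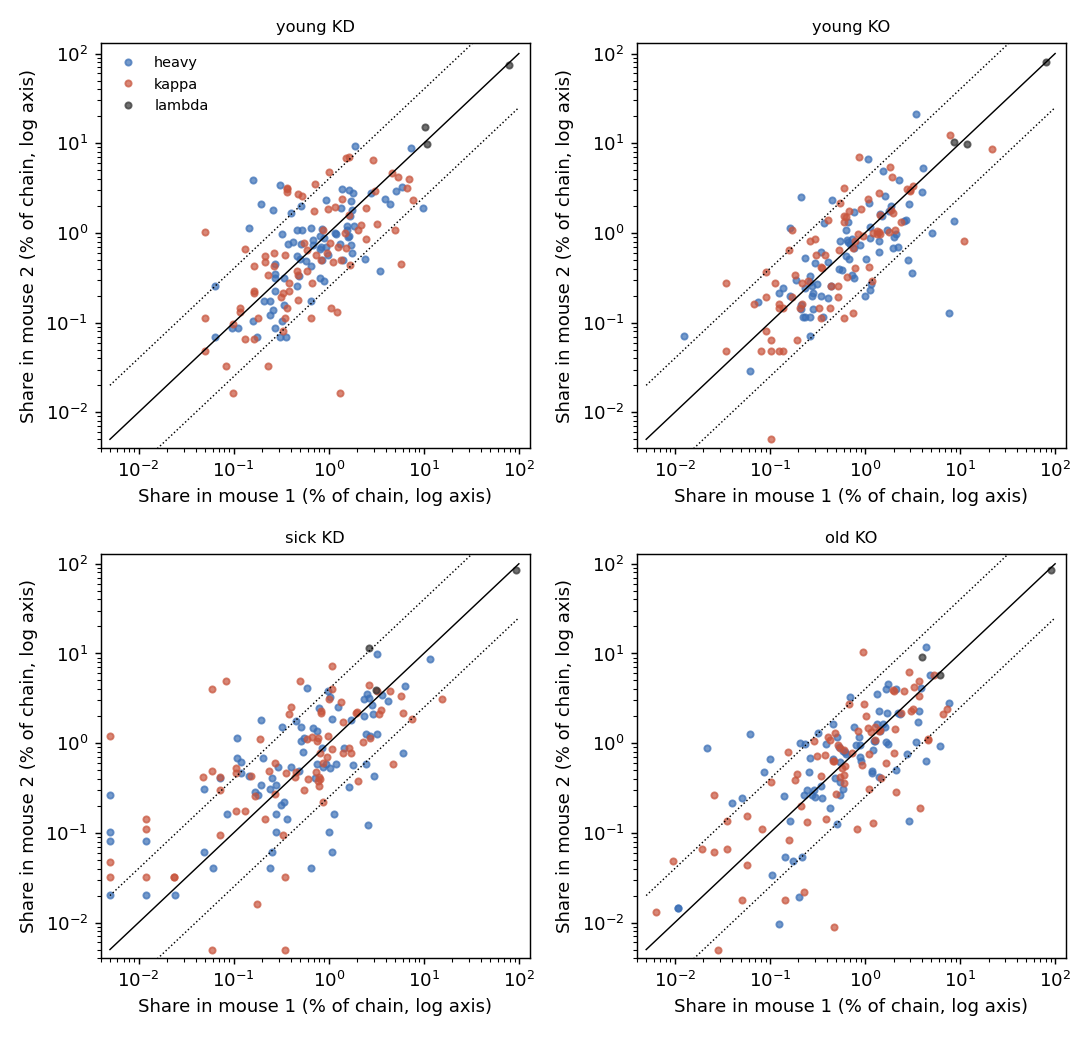
Share of every V member in mouse 1 (horizontal) and mouse 2 (vertical) of each group, in percent of the V counts of its chain on log axes, with a solid line at equal shares and dotted lines at a 4-fold difference. Members without a count are drawn at 0.005%. In each group heavy (blue) and kappa (red) genes lie outside the dotted lines, while the 3 lambda genes (black) lie between them except Iglv3 in sick KD mice.

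Large ratios between the shares of mice of a group were more frequent for V genes than for other genes. Genes with at least 50 counts in the 2 mice together were compared. V genes and other genes were not matched for counts beyond this, and the part of counting error in the ratios was not tested. Between the young KD mice, 10 of 60 heavy and 15 of 51 kappa members differed more than 4-fold in share. Of 13125 other genes 17 did so (0.130%), with their share taken in the summed counts of these other genes. The corresponding shares were 22.4% and 15.1% in young KO, 24.5% and 20.4% in sick KD and 21.8% and 17.4% in old KO mice, against 0.374%, 0.433% and 0.449% of other genes. The median ratio between mates was 1.76 to 2.22 for V genes and 1.09 to 1.15 for other genes. Among members with a count in both mice, the widest ratios were those of Igkv4-63 in young KD (81.9-fold) and Ighv1-20 in young KO (59.6-fold). In sick KD it was that of Igkv1-133 (68.6-fold) and in old KO mice that of Igkv12-38 (53.0-fold). Igkv4-90, with no count in sick KD mouse 1 and 1.20% in sick KD mouse 2, has no finite ratio and was left out.

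Usage profiles were compared pair by pair, within and between groups. The overlap of 2 usage profiles, which is the percentage of usage that they have in common, had a median of 65.7% over the 4 pairs of heavy profiles within groups and 61.4% over the 24 pairs between groups. For the kappa chain the medians were 62.6% and 58.9%. Spearman's rho across heavy V genes was 0.64 in the median both within and between groups, and across kappa V genes 0.69 and 0.66. These are descriptions across genes, which are not independent replicates, and the ranges of the 2 kinds of pairs overlapped.

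How concentrated usage was is summarised by the effective number of V genes, the inverse Simpson index, which equals the number of genes if all have the same share and falls as a few dominate. For the heavy chain it was 29.7 and 31.4 in young KD, 32.4 and 15.6 in young KO, 27.0 and 28.4 in sick KD and 33.9 and 28.9 in old KO mice. Young KO mouse 2, in which Ighv8-12 dominated, stood apart below the others. For the kappa chain the values were 28.7 and 30.0, 13.4 and 23.1, 19.6 and 34.2, and 32.1 and 28.3 in the same order. The low values belonged to young KO mouse 1 and sick KD mouse 1, the mice with the highest Igkv10-96 shares.

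Between 8 and 13 heavy and between 7 and 13 kappa V genes were enough for 50% of the V counts of the chain in a library. The 10 most used heavy genes held 43.4% to 54.5% and the 10 most used kappa genes 43.6% to 59.2%. At the other end, 3 to 12 heavy and 6 to 16 kappa members had less than 0.1% each, with the highest numbers in sick KD mouse 1. Every heavy member had a count in 7 of the libraries, and 78 of 82 in sick KD mouse 1. When each library was thinned to the smallest, 4924 heavy V counts, the expected number of heavy members detected was 77.0 in sick KD mouse 1 and 79.9 to 82.0 in the other 7.

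**Figure D3:**
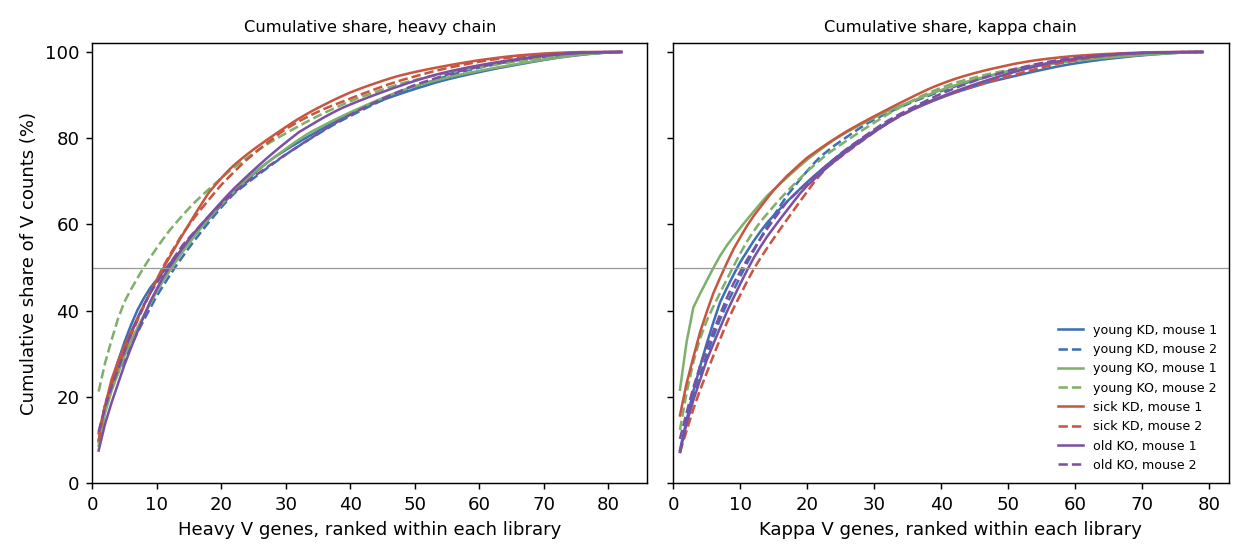
Cumulative share of the heavy (left) and kappa (right) V counts, in percent, over V genes ranked from the most used within each library, with 1 line per mouse (solid for mouse 1, dashed for mouse 2) and a grey line at 50%. The curve of young KO mouse 2 rises first for the heavy chain, from 21.3%, and that of young KO mouse 1 for the kappa chain, from 21.7%.

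No difference in concentration passed the test between young and older mice or between genotypes. The effective number of heavy V genes averaged 27.2 ± 7.87 (SD, n = 4) in young and 29.5 ± 3.02 in old or sick mice (difference -2.30, p = 0.80 by a two-sided exact permutation test, adjusted p = 0.914). The mean of the kappa chain was 23.8 ± 7.57 in young and 28.5 ± 6.42 in old or sick mice (p = 0.40 by the exact permutation test, adjusted p = 0.64). KO and KD mice differed by -1.43 heavy genes (exact permutation p = 0.943, adjusted p = 0.943) and -3.92 kappa genes (exact permutation p = 0.486, adjusted p = 0.648). These 4 tests belong to a family of 8 with the tests of summed level, and 4 mice against 4 cannot give a p below 0.0286. Without young KO mouse 2 both heavy differences changed sign, to 1.60 between young and older mice and to 2.61 between KO and KD mice.

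The summed level of V genes was highest in old KO mice. Heavy V genes summed to 155 and 175 CPM in young KD, 182 and 213 CPM in young KO, 335 and 175 CPM in sick KD and 980.2 and 527 CPM in old KO mice. Kappa V genes summed to 150.1 and 186 CPM, 198 and 189 CPM, 341 and 223 CPM, and 1102 and 577 CPM in the same order. All 4 old or sick mice lay above all young mice for kappa V genes, and for heavy V genes the second sick KD mouse lay within the young range. On the log2 scale young mice were lower by 1.38 for kappa V genes (exact permutation p = 0.0286, the smallest this design allows, adjusted p = 0.229). In a family of 8 tests a single p at this limit cannot pass after adjustment, so the adjusted p does not decide whether kappa levels differ. For heavy V genes young mice were lower by 1.21 (exact permutation p = 0.0857, adjusted p = 0.343). KO mice exceeded KD mice by 0.92 for heavy (exact permutation p = 0.171, adjusted p = 0.457) and 0.87 for kappa V genes (exact permutation p = 0.257, adjusted p = 0.514).

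Igkc and Jchain were highest in the old KO mice, as the V genes were, whereas Cd79a and Vpreb1 were higher in all young than in all old or sick mice. Not all genes of their lists followed. Cr2 of the B lineage list was highest in old KO mice with 4.97 and 5.18 CPM against 2.31 to 3.53 CPM in young mice. Fcer2a of this list overlapped between young (3.11 to 4.16 CPM) and old KO mice (3.94 and 3.83 CPM). Cd93 of the pro-B and pre-B list had 471 to 523 CPM in young and 433 to 550 CPM in old or sick mice. In the plasma cell list, which holds Jchain, Sdc1, Tnfrsf17, Derl3 and Txndc5 were also highest in old KO mice. Irf4, Pou2af1 and Slamf7 went the other way and were higher in all young than in both old KO mice. For Irf4 the levels were 90.6 to 134 CPM in young and 65.4 and 54.6 CPM in old KO mice. Xbp1 was highest in sick KD mice. Igkc, the kappa constant gene, had 166 and 219 CPM in young KD, 201 and 205 CPM in young KO, 321 and 201 CPM in sick KD and 1312 and 654 CPM in old KO mice. Jchain, which joins secreted IgM and IgA and is abundant in plasma cells, had 82.8 to 142 CPM in young and sick KD mice and 533 and 259 CPM in old KO mice. Cd79a, a signalling subunit of the B cell receptor, had 49.8 to 71.6 CPM in young mice and 2.22, 6.83, 10.8 and 17.2 CPM in the sick KD and old KO mice. Vpreb1, part of the surrogate light chain of precursors, had 12.2 to 24.2 CPM in young and 0.242 to 3.11 CPM in old or sick mice. Ighm, the IgM heavy chain, was lowest in sick KD mouse 1 with 164 CPM and highest in old KO mouse 1 with 1737 CPM. The part of the makeup of B lineage cells in V gene usage was not tested.

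**Figure D4:**
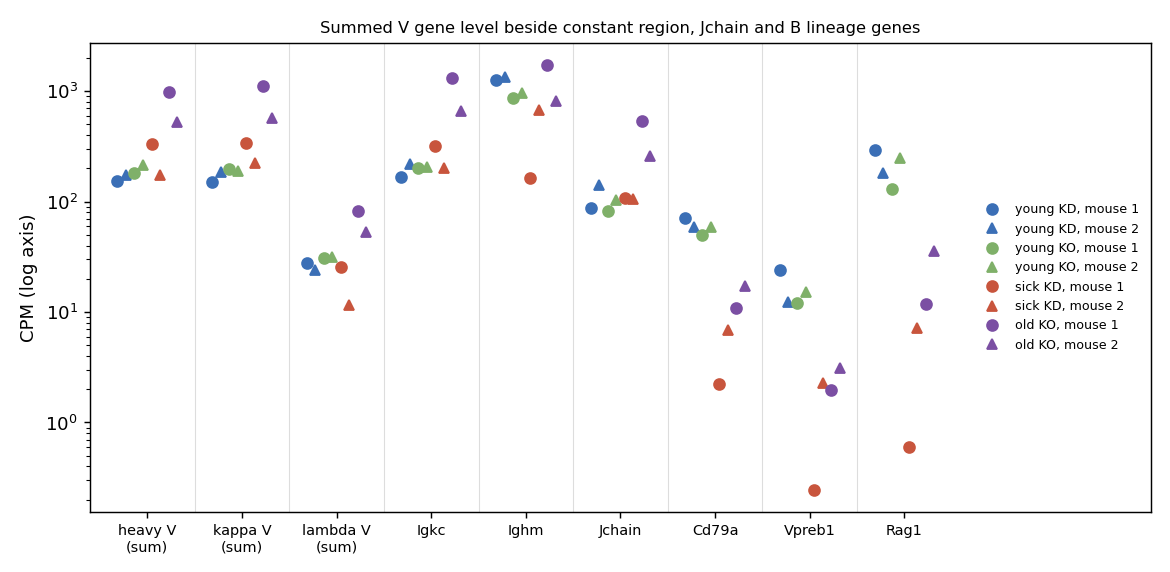
Summed CPM of heavy, kappa and lambda V genes and CPM of Igkc, Ighm, Jchain, Cd79a, Vpreb1 and Rag1 on a log axis, with 1 point per mouse (mouse 1 as circles, mouse 2 as triangles). Heavy, kappa and lambda V genes, Igkc and Jchain are highest in old KO mice, whereas Cd79a, Vpreb1 and Rag1 are lower in all 4 old or sick mice than in all young mice.

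Lambda V genes took a larger part of the light chain in young mice. They made up 15.5% (95% Wilson interval 14.7% to 16.4%) and 11.5% (10.8% to 12.3%) of light chain V counts in young KD and 13.4% (12.7% to 14.1%) and 14.3% (13.6% to 15.2%) in young KO mice. In sick KD mice the share was 6.99% (6.48% to 7.53%) and 4.99% (4.49% to 5.54%), and in old KO mice 6.87% (6.61% to 7.15%) and 8.43% (8.09% to 8.78%). All young mice thus lay above all old or sick mice, a separation that was noticed in these values and was not tested. The level of lambda V genes itself was 24.2 to 31.7 CPM in young mice, 25.6 and 11.7 CPM in sick KD and 81.3 and 53.1 CPM in old KO mice, so that in old KO mice it was higher than in young mice although its share was lower. The intervals cover counting error only, and reads that are copies of 1 molecule are not independent.

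Within the lambda chain Iglv1 held 83.3% ± 6.35 (SD, n = 8), Iglv3 9.36% ± 4.18 and Iglv2 7.31% ± 2.95. Iglv1 had 74.9% to 79.9% in the 4 young mice and 94.2%, 84.5%, 89.9% and 85.0% in the sick KD and old KO mice. Iglv2 had 8.68% to 10.8% in young and 3.16% to 6.15% in old or sick mice. Iglv3 ranged from 2.68% in sick KD mouse 1 to 15.4% in young KD mouse 2, and young and older mice overlapped. Iglv1 and Iglv2 are 96.9% identical in their coding sequence, and 77.8% and 76.0% of their windows are unique.

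Among heavy V gene families Ighv1, the largest, held 54.6% ± 6.76 (SD, n = 8) of heavy V counts with 40 of the 82 members (48.8%). Its share was 51.1% and 47.4% in young KD, 57.0% and 42.7% in young KO, 60.0% and 60.8% in sick KD and 59.3% and 58.9% in old KO mice. All 4 old or sick mice were above the young mice and lay within a narrow range, which was seen in these values and was not tested. The Ighv5 family, whose members lie near the D and J segments, had 17.3% and 18.2% in young KD mice and 6.72% to 10.1% in the other 6. In young KD mice this rested on a different gene each, Ighv5-17 with 9.90% in mouse 1 and Ighv5-4 with 9.29% in mouse 2. Ighv3 held 12.3% and 9.55% in sick KD mice, mostly through Ighv3-6, and 2.29% to 9.70% in the other mice. Ighv8 ranged from 0.808% to 21.6%, through Ighv8-12.

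**Figure D5:**
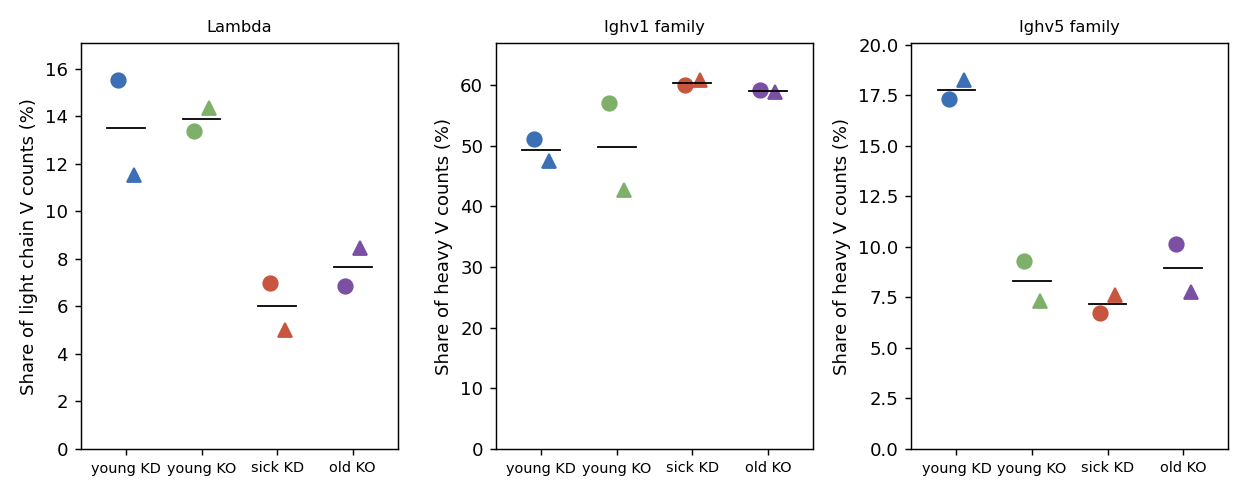
Lambda share of light chain V counts (left) and share of the Ighv1 (middle) and Ighv5 (right) families in heavy V counts, in percent, with 1 point per mouse and a line at the mean of each group. The lambda share is 11.5% or more in all young and 8.43% or less in all old or sick mice, and Ighv1 is 58.9% or more in all old or sick mice.

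The position of a V gene along the locus sets how far it lies from the J segments. The 27 heavy members nearest to J, 149 to 723 kb away, held 35.02% and 38.1% of heavy V counts in young KD, 26.6% and 21.6% in young KO, 19.4% and 19.9% in sick KD and 23.4% and 27.4% in old KO mice. The middle 27 members averaged 37.0% ± 4.77 and the farthest 28 members, 1507 to 2570.2 kb away, 36.6% ± 6.55. Kappa usage was lowest in the middle of its locus, with 22.3% ± 6.59 for the 26 middle members against 33.0% ± 3.93 for the 26 nearest and 44.8% ± 8.07 for the 27 farthest. Kappa V genes lie in both orientations and join J by deletion of the DNA between them when on the same strand and by inversion when on the opposite strand. The 48 members on the opposite strand (60.8% of members) held 62.1% ± 6.84 of kappa V counts, with 50.3% to 69.1% over the mice.

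Among kappa families, Igkv4, the largest with 20 members, held 13.0% ± 2.77 of kappa V counts, against its 25.3% of the members. Igkv1 held 12.2% ± 3.85 with 7 members, Igkv10 10.4% ± 6.44 with 3 members, mostly Igkv10-96, and Igkv12 10.3% ± 3.92 with 6 members. Igkv8 had 12.2% and 7.15% in young KD and 16.1% and 12.8% in young KO mice, and 4.83% to 7.95% in the older mice, so that the groups of young and older mice overlapped.

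Differences between groups were tested gene by gene in a fit of all genes, in 2 ways. The level of a V gene was its count relative to the library, and its usage was its count relative to the V counts of its chain. In the usage fit all other genes stayed relative to the library. The share of all genes called there is thus mostly one of levels, and not a background of usage. A gene was called at an adjusted p under 0.05 (edgeR quasi-likelihood test, Benjamini-Hochberg over all genes tested), and a positive log2 fold change (log2FC) means more in the group named first. The p-values measure the spread between 2 mice per group. The estimated variation between mice of a group (the biological coefficient of variation) had a median of 0.33 to 0.41 over the V members in the 4 comparisons of level and 0.11 to 0.14 over all genes tested. Comparisons that share a group share its mice.

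The question of young KO against young KD is whether the absence and the reduction of Gfi1 differ before disease. No V gene was called by edgeR for level or for usage among the 147 members tested, and 0.0404% of all genes tested were called in each of the 2 fits. At an unadjusted p under 0.05 there were 36 members for level (24.5%, against 2.66% of all genes) and 42 for usage (28.6%, against 2.70%), DESeq2 called 6 and 5, and edgeR without a filter on low counts 38 and 36. Without young KD mouse 2 edgeR called 1 and 2 members, without young KD mouse 1 it called 1 in each, and without young KO mouse 2 it called 1 in level. The estimates were positive for 77 and negative for 70 members in level, with a median log2FC of 0.08, and positive for 62 and negative for 85 in usage, with a median of -0.17, against -0.01 over all genes in both. In level their median absolute log2FC was 0.69, against 0.08 over all genes. The smallest adjusted p of a member was 0.171 for level and 0.334 for usage.

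Old KO against sick KD compares marrow of older mice without and with disease. As the groups also differ in genotype, disease and genotype cannot be told apart. Their ages overlapped, with 158 and 101 days in old KO and 187 and 78 days in sick KD mice. Both comparisons with sick KD mice rest on the libraries with 1.69 and 1.87 records that were not unique per count on genes. In level 56 of 153 members tested were called (36.6%, against 18.1% of all genes), 55 higher and 1 lower in old KO mice, with a median log2FC of 1.76 over the members tested and 0.00 over all genes. Relative to the chain, 22 members were called (14.4%, against 18.2% of all genes), 11 in each direction, with a median log2FC of 0.13. Shares within a chain sum to a fixed total, so that rises and falls in usage balance by construction. Without a filter on low counts 125 and 83 members were called. Without old KO mouse 2, which left the other old KO mouse alone in its group, 105 members were called in level, and 46 in usage. Usage calls also numbered 38 without old KO mouse 1 and 41 without sick KD mouse 2.

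By level, Ighv1-66 had 21 and 20 counts in sick KD and 1227 and 131 in old KO mice (log2FC 4.90, SE 1.16, adjusted p = 0.0309). Most of this lay in old KO mouse 1, where Ighv1-66 made up 4.41% of heavy V counts against 0.253% to 1.43% elsewhere. Ighv7-4, with 1 and 1 against 14 and 51 counts, and Ighv1-67, with 0 and 4 against 24 and 98 counts, rested on few reads (log2FC 4.46 and 4.43, adjusted p = 0.0154 and 0.0223). Ighv7-4 had 28 counts outside the old KO group and was a member only through it. The member called lower was Igkv8-21, with 163 and 137 counts in sick KD and 58 and 88 in old KO mice (log2FC -1.41, SE 0.27, adjusted p = 0.0169). Without sick KD mouse 1 these 4 calls were lost, with adjusted p of 0.113 for Ighv1-66, 0.0691 for Ighv7-4, 0.0721 for Ighv1-67 and 0.0718 for Igkv8-21. Without sick KD mouse 2 Ighv1-66 and Ighv7-4 were lost too (adjusted p = 0.0931 and 0.0522), and Igkv8-21 was lost in a fit of all 8 mice (adjusted p = 0.289).

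In usage, Igkv4-59 fell from 3.38% and 2.11% of kappa V counts in sick KD to 0.604% and 0.438% in old KO mice (log2FC -2.39, SE 0.31, adjusted p = 0.00554). It kept its call in every alternative run, with adjusted p up to 0.0208. Young mice, which were not part of this test, had 0.528% to 2.55% and overlapped both groups. Igkv8-21 had 1.93% and 2.19% in sick KD and 0.185% and 0.390% in old KO mice (log2FC -2.85, adjusted p = 0.00594, and 0.0659 in a fit of all 8 mice), and young KO mouse 1, which was not in the 4-mouse test, had 11.1%. Igkv6-13 was also lower, with 0.273% and 0.607% against 0.0831% and 0.111% (log2FC -2.16, adjusted p = 0.0237, and 0.0956 without sick KD mouse 2).

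The called genes with the largest rise in usage were Igkv3-7, Ighv5-9-1 and Igkv3-12. Igkv3-7 had 0.0711% and 0.0958% in sick KD and 0.604% and 0.363% in old KO mice (log2FC 2.55, adjusted p = 0.0116), and its highest share, 3.17%, was in young KO mouse 2. Ighv5-9-1 had 0.145% and 0.426% against 0.776% and 1.51% of heavy V counts (log2FC 2.09, adjusted p = 0.0382). Igkv3-12 had 0.130% and 0.176% against 0.617% and 0.562% (log2FC 1.96, SE 0.32, adjusted p = 0.00972). Without sick KD mouse 1 all 3 lost their calls, with adjusted p of 0.060, 0.133 and 0.0508.

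Sick KD against young KD compares KD mice with and without disease, which also differ in age. In level 28 of 144 members tested were called (19.4%, against 20.9% of all genes), 22 higher and 6 lower in sick mice, with a median log2FC of 0.53 over the members tested and 0.01 over all genes. In usage 19 members were called (13.2%, against 20.9% of all genes), 12 higher and 7 lower. Without a filter on low counts the calls were 75 and 70. Without young KD mouse 2 the calls rose to 52 in level and 44 in usage, without sick KD mouse 2 to 47 and 35, and without young KD mouse 1 usage calls rose to 33.

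Ighv5-2, among the heavy members nearest to the D segments, fell in the sick mice. It had 31 and 30 counts in young KD and 4 and 3 in sick KD mice, 0.497% and 0.518% against 0.0482% and 0.0609% of heavy V counts (usage log2FC -3.20, SE 0.43, adjusted p = 0.00781; level log2FC -2.62, adjusted p = 0.0144). Both calls remained in every alternative run, with adjusted p up to 0.0371 for usage and 0.0445 for level, but with 49 counts outside the young KD group Ighv5-2 was a member only through that group. Ighv6-7 went from 0.481% and 0.328% to 0.0603% and 0.0406% (usage log2FC -2.90, adjusted p = 0.0138, and up to 0.0499 in the alternatives). Igkv1-88 had 1.63% and 6.99% in young KD and 0.107% and 0.527% in sick KD mice (usage log2FC -3.82, SE 0.90, adjusted p = 0.0310, and 0.0917 without sick KD mouse 1), and its high value in young KD mouse 2 was the leading kappa share of that library.

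Among the genes called, the largest rises in sick KD mice were those of Igkv1-99, Igkv8-28 and Igkv9-124, in level and in usage. Igkv1-99 had 3 and 3 counts in young KD and 16 and 70 in sick KD mice (level log2FC 4.20, SE 0.81, adjusted p = 0.0192), and its usage went from 0.0495% and 0.0487% to 0.190% and 1.12% (log2FC 3.65, adjusted p = 0.0493, and 0.0984 without sick KD mouse 2). Igkv8-28 rose from 0.363% and 0.146% to 2.71% and 1.13% (usage log2FC 2.93, adjusted p = 0.0197, and 0.0521 without sick KD mouse 1). Igkv9-124 rose from 0.330% and 0.0812% to 1.42% and 0.782% (usage log2FC 2.43, adjusted p = 0.0356, and 0.114 without sick KD mouse 1).

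Old KO against young KO compares healthy KO mice of different ages. In level 31 of 161 members tested were called, all higher in old mice (19.3%, against 0.929% of all genes), with a median log2FC of 2.11 over the members tested and 0.00 over all genes. In usage 8 members were called (4.97%, against 0.647% of all genes), 6 higher and 2 lower, with a median log2FC of 0.13. DESeq2 called 79 and 22 members and edgeR without a filter on low counts 123 and 66, and a fit of all 8 mice gave 18 level calls. The level calls were 73 without old KO mouse 2, 15 without young KO mouse 1 and 8 without young KO mouse 2, and the usage calls were 14 without old KO mouse 2.

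The 3 largest rises among called genes were the same genes in level and in usage. Igkv1-133 had 7 and 3 counts in young KO and 169 and 199 in old KO mice (level log2FC 5.38, SE 0.34, adjusted p = 0.0137), and its usage went from 0.0802% and 0.0482% to 0.540% and 0.881% (log2FC 3.41, adjusted p = 0.0458). In a fit of all 8 mice neither passed (adjusted p = 0.183 for level and 0.666 for usage). Igkv13-84, the only member of its family, went from 0.206% and 0.145% to 1.27% and 1.09% (usage log2FC 2.72, SE 0.26, adjusted p = 0.0324). Ighv1-42 went from 0.187% and 0.300% to 1.62% and 1.496% of heavy V counts (usage log2FC 2.69, SE 0.27, adjusted p = 0.0324). The level calls of Igkv13-84 and Ighv1-42 were lost without young KO mouse 1 (adjusted p = 0.0511 for both) and without young KO mouse 2 (adjusted p = 0.0914 and 0.0621). Each of the 3 usage calls was lost without young KO mouse 2, with adjusted p of 0.179, 0.0879 and 0.0543, and without 1 other mouse (adjusted p = 0.0893 for Igkv1-133 without young KO mouse 1, 0.0716 for Igkv13-84 and 0.0777 for Ighv1-42 without old KO mouse 1).

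Ighv8-6 and Ighv5-2 were the 2 members called lower in usage. Ighv5-2 had 19 and 17 counts in young KO and 3 and 3 in old KO mice, 0.237% and 0.243% against 0.0108% and 0.0145% (log2FC -4.18, SE 0.47, adjusted p = 0.0371). Ighv8-6 had 62 and 22 against 3 and 3 counts (log2FC -5.37, SE 0.64, adjusted p = 0.0389), and with 20 counts outside the young KO group it was a member only through that group. In level neither was called (adjusted p = 0.155 for Ighv5-2 and 0.0877 for Ighv8-6). Leaving out any of the 4 mice raised the adjusted p of Ighv5-2 to between 0.0559 and 0.166, and that of Ighv8-6 to between 0.0645 and 0.151 without young KO mouse 1, old KO mouse 1 or old KO mouse 2.

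Across the 8 mice, few members separated young from old or sick mice. The shares of 8 heavy (9.76%) and 5 kappa members (6.33%) did not overlap between the 4 young and the 4 old or sick mice, against 10.0% of all genes with at least 50 summed counts whose CPM did not overlap, so that the count of V genes was near the background. In CPM 28 of the 164 members did not overlap (17.1%), 26 of them higher in the old or sick mice. Ighv1-64, Ighv1-81 and Ighv1-42 of the heavy chain and Igkv10-94, Igkv5-48 and Igkv13-84 of the kappa chain had higher shares in all old or sick mice. Ighv1-64 had 1.77% to 2.00% in young and 2.36% to 5.73% in old or sick mice, and Igkv10-94 had 0.418% to 1.11% and 2.00% to 3.73%. Lower in all old or sick mice were Ighv6-6, Ighv1-5, Ighv5-2, Ighv8-6, Ighv15-2, Igkv10-95 and Igkv11-125. Of these, Ighv5-2 and Igkv11-125 were members only through the young KD group, with 49 and 38 counts outside it. Ighv8-6 was a member only through the young KO group, with 20 counts outside it. The lower shares of Ighv5-2, Igkv11-125 and Ighv8-6 in older mice thus follow in part from the selection.

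Of 13 genes of recombination and end joining, 7 were called lower and 1 higher in sick KD against young KD, with a median log2FC of -0.50, and 1 was lower in old KO against young KO, where 20.9% and 0.929% of all genes were called. Rag1, which encodes the RAG recombinase, had 292 and 181 CPM in young KD, 131 and 249.5 CPM in young KO, 0.605 and 7.11 CPM in sick KD and 11.8 and 35.8 CPM in old KO mice (sick KD against young KD log2FC -5.91, edgeR adjusted p = 0.0082). Dntt, which adds untemplated bases at the joint, fell in both (log2FC -4.63 and -2.36, adjusted p = 0.0107 and 0.0489). In old KO against sick KD, where 18.1% of all genes were called, 2 of the 13 were higher and 3 lower. None was called in young KO against young KD, where 6 of 14839 genes were called (0.0404%).

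Of 16 regulators of V recombination and locus folding, 9 were called lower in sick KD against young KD (median log2FC -0.45), among them Pax5 and Ebf1, which commit cells to the B lineage, Il7r and the insulator protein gene Ctcf (log2FC -3.87, -3.65, -3.05 and -0.40). In old KO against young KO 3 were lower, namely Pax5, Ebf1 and Ikzf3. In old KO against sick KD 4 were higher. The shares of all genes called in these 3 comparisons were 20.9%, 0.929% and 18.1%. Of the 10 immunoglobulin constant and Jchain genes in the files, 6 were called higher in old KO against sick KD and 3 in old KO against young KO, and 2 were higher and 1, Iglc2 of the lambda chain, lower in sick KD against young KD (log2FC -2.09, adjusted p = 0.00423). Markers of pro-B and pre-B cells, 9 genes, were lower in 8 cases in sick KD against young KD and in 4 cases in old KO against young KO, and all 12 and 9 of the 12 B lineage markers were lower in these comparisons. Of the 12 plasma cell markers 8 were higher in old KO against sick KD, 1 was lower in old KO against young KO, and 1 was higher and 4 were lower in sick KD against young KD. In the older mice, V gene levels were thus measured beside low levels of most precursor markers, and the part of this in the usage of single V genes was not tested.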

How the data were processed

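Libraries from total BM of 8 mice were prepared by the authors with a stranded mRNA kit, aligned to mm10 with TopHat2 2.0.10 and counted with HTSeq. The deposited values are raw counts for 41214 genes per mouse, without normalization. The 5 HTSeq tallies of unassigned reads were left out. HTSeq settings and the Ensembl release are not given in the sources used here.

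GENCODE M21 on GRCm38 gave a symbol to 40254 identifiers. Levels were tested with the quasi-likelihood test of edgeR 4.0.16 (R 4.3.3; TMM, filterByExpr by group) on the 4 mice of each comparison. For usage, the offset of a V gene was the V count of its chain. The SE is derived from the log2 fold change and its F statistic. Values per mouse were compared by two-sided exact permutation tests (scipy 1.17.1). Alternatives included DESeq2 1.42.0, no filter on low counts and leaving out each mouse. The edgeR steps were tested on simulated counts with 4-fold changes in 200 genes drawn from all genes tested. The simulated spread between mice was smaller than that of the V members, so this does not show how well changes in V genes are found.

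Named are the 5 heavy and 5 kappa V genes with the highest mean share, all lambda genes, the leading gene of each library, per comparison the 3 called genes that changed most each way, and those nearest the minimum. Other V genes were named after their values were seen. The B lineage list leaves out 1 gene that is not reported here. The V genes and lists were chosen with earlier results of these data known. A share of 1% has a 95% Wilson interval of 0.754% to 1.31% at 4924 heavy V counts and of 0.889% to 1.12% at 27831.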

Additional observations from a re-analysis of the deposited data

Results flagged for a closer look

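Of 43 values examined in the same contrast of older against young mice, 5 went opposite ways in KO and KD mice, with both old KO mice on the other side of both young KO mice than both sick KD mice were of both young KD mice. They are shares of the chain, in percentage points, and the difference was not tested. These 5 genes had been named for calls or leading shares in these same data, so their differences follow in part from that choice. The share of all V members that went opposite ways is not given, so 5 of 43 has no background beside it. Ighv1-9 changed by 3.65 in KO and -1.81 in KD mice, a difference of 5.47. Igkv8-21 changed by -5.68 and 1.27, a difference of -6.95. Igkv1-88 changed by 0.251 and -3.99, a difference of 4.25, Ighv1-66 by 2.04 and -0.635, a difference of 2.68, and Igkv3-12 by 0.319 and -0.509, a difference of 0.828. In 4 of the 5, a single mouse stood far from its group mate. Igkv8-21 had 11.1% in young KO mouse 1 and 0.820% in its mate, Ighv1-66 had 4.41% in old KO mouse 1 and 0.634% in its mate, Igkv1-88 had 6.99% in young KD mouse 2 and 1.63% in its mate, and Ighv1-9 had 7.58% in old KO mouse 1 and 2.79% in its mate.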

How the results depend on the processing

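The counts of V genes called moved with the filter, the tool and single mice. Without a filter on low counts the calls in level and usage were 38 and 36 for young KO against young KD, 125 and 83 for old KO against sick KD, 75 and 70 for sick KD against young KD and 123 and 66 for old KO against young KO. DESeq2 called 6 and 5 for young KO against young KD and 79 and 22 for old KO against young KO. A fit of all 8 mice together gave 18 level calls for old KO against young KO. The cause was not tested. Leaving out each mouse in turn gave 0 to 1 and 0 to 2 calls for young KO against young KD, 56 to 105 and 21 to 46 for old KO against sick KD, 27 to 52 and 18 to 44 for sick KD against young KD, and 8 to 73 and 6 to 14 for old KO against young KO. A mouse left alone in its group was assumed to vary like the other group.

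Leaving out each mouse, the difference in effective number between young and old or sick mice was -4.01 to 1.60 for heavy and -7.74 to -1.29 for kappa V genes, and that between KO and KD mice -3.51 to 2.61 and -6.75 to -0.305. For the summed level on the log2 scale the differences were -1.63 to -0.80 and -1.74 to -0.97 between young and older mice and 0.46 to 1.26 and 0.38 to 1.23 between KO and KD mice. With 3 mice against 4 no p below 0.0571 is possible, so these are given as values. Other scalings, the Shannon index, exon length and V pseudogenes left every test of a single value on its side of the threshold. Of 30 calls of named V genes, 6 held in every alternative. Among these 6 are the level and usage calls of Ighv5-2 in sick KD against young KD. As Ighv5-2 was a member only through the young KD group, its calls follow in part from the selection. No paired analysis was possible because the labels give each mouse its own number, so that groups have no replicate number in common. Depth limits members of few counts, such as Ighv7-4.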
